A study of Mus musculus with 16 samples.

Results

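After bright light, the mRNA of most of 47 measured genes of ribosome biogenesis and of the nucleolus was higher in both eye tissues studied in mice. That of Polr1a, the gene of the catalytic subunit of RNA polymerase I, was lower in the retinal pigment epithelium (RPE) alone of the 2 tissues. The genes described here are 48 genes of ribosome biogenesis and of the nucleolus, listed by symbol for their function. The list was chosen with earlier results of these data known, so it is not independent of the values. Of the 48 genes, 47 were measured, out of 19938 genes on the arrays, and Noc2l had no transcript cluster of its own. A transcript cluster is a set of probes that the array summarises as 1 value, and a gene can have several, as 4 members did. For each gene the cluster that was brightest on average over all arrays was used.

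Ribosomes are made mostly in the nucleolus, where RNA polymerase I transcribes the ribosomal RNA (rRNA) precursor. Small nucleolar ribonucleoproteins (snoRNPs) modify this precursor, and a long series of helicases, nucleases, GTPases and scaffold proteins folds, cuts and packs it into the small and the large subunit. Most of these factors are found in every cell type, and their genes often move together when cells grow or are stressed.

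All animals were males of the albino strain Balb/cJ and 10 weeks old, so their RPE lacks melanin. Light-exposed mice (4 animals) had received 10000 lux from cool white fluorescent lamps over 18 hours and were killed 4 hours after its end, and control mice (4 animals) had remained on an ordinary 12-hour cycle of light and dark. From each mouse the RPE was isolated, and so was the neurosensory retina (NSR) with its photoreceptors and neurons, which gave 4 groups of 4 arrays: light-exposed RPE, control RPE, light-exposed NSR and control NSR. The effect of brightness and that of a disturbed day length cannot be told apart.

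All values are log2 expression values as the authors deposited them, and a difference of 1 between 2 groups is a 2-fold change. They carry no measure of detection, but no member had a group mean below 5.63, the level under which the dimmest 25% of genes lay. Array medians over all clusters were 6.378 to 6.432 in light-exposed RPE, 6.406 to 6.425 in control RPE, 6.519 to 6.552 in light-exposed NSR and 6.552 to 6.569 in control NSR. Against control NSR, control RPE was higher in 9 of 11 markers of pigment epithelium, lower in 1 and not called in 1. It was lower in all 11 measured rod markers. Control RPE was also higher in 11 of 15 markers of microglia and macrophages, with 0 lower. Of 10 markers of fibroblasts and pericytes, 9 were higher there and 1 lower. Over all genes, 30.8% were higher and 24.2% lower. RPE values are thus those of the isolated tissue, and which of its cells carried the members' mRNA was not tested. Some RPE arrays stood apart in genes of neighbouring tissue: RPE light 2 was high in cornea and ciliary body markers, RPE control 2 in lens markers, and RPE light 1 was the highest of its group in rod markers. Counts in the RPE are therefore also given without these 3 arrays.

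In the RPE, 34 of the 47 genes rose and 1 fell after light at an adjusted p under 0.05 in limma, against 9.08% of all genes that rose and 8.53% that fell. In the NSR, 30 of 47 rose and 0 fell, against 8.87% of all genes that rose and 6.24% that fell. Differences were above 0 for 45 members in the RPE and 47 in the NSR (46 with each array centred on its median over genes and 45 with quantile normalization), against 48.5% and 45.3% of all genes. At an unadjusted p under 0.05, 43 members differed in the RPE and 39 in the NSR, against 28.0% and 28.1% of all genes. The median log2 difference of the members was 0.48 in the RPE and 0.30 in the NSR, beside -0.01 and -0.02 over all genes in the same order of tissues. The changes were mostly small: they ran from -0.88 to 1.03 in the RPE and from 0.02 to 0.89 in the NSR, and 18 members in the RPE and 5 in the NSR rose at least 1.5-fold, against 2.5% and 2.98% of all genes. The 1 fall in the RPE was also at least 1.5-fold, against 2.73% of all genes, and 0 members fell that far in the NSR, against 1.13%. Light-exposed and control arrays did not overlap, with light higher, for 37 members in the RPE and 32 in the NSR, against 11.3% and 10.7% of all genes. With the 3 arrays named above left out, 28 members rose in the RPE, all of them among the 34, and 1 fell, against 5.01% and 5.31% of all genes. RNA of each whole tissue is measured here, on a scale relative to the other RNA of the sample. A changed share of a cell type and a changed RNA level per cell therefore cannot be told apart, for rises as for falls.

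**Figure D1:**
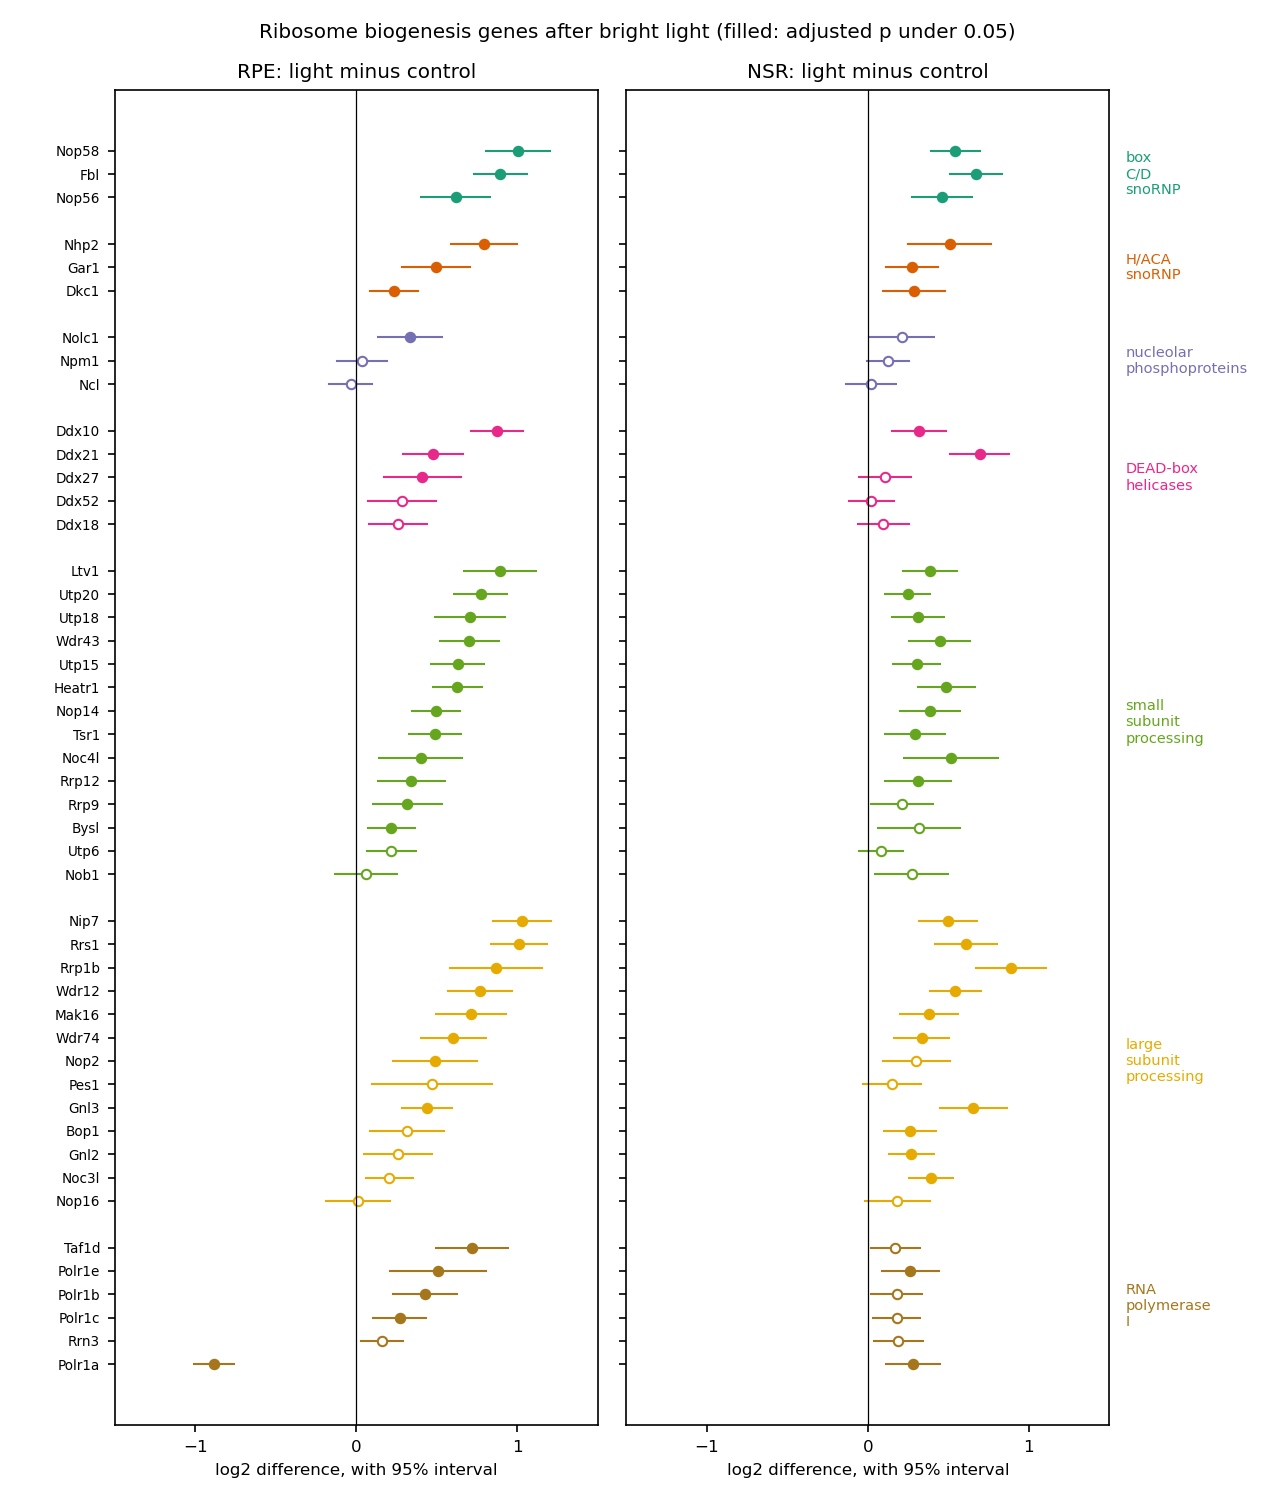
The plot gives the log2 difference of light-exposed minus control arrays for each of the 47 genes, ordered by role, in the RPE (left) and the NSR (right). Points are estimates from limma with 95% confidence intervals as bars, and filled points passed an adjusted p under 0.05. Nearly all points lie right of 0 in both panels, and Polr1a in the RPE lies at -0.88.

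The same trend was visible on each array. The median level of the 47 genes was 8.76 to 8.92 on the light-exposed RPE arrays against 8.27 to 8.37 on the control RPE arrays, and 8.67 to 8.79 on the light-exposed NSR arrays against 8.27 to 8.42 on the control NSR arrays. Groups did not overlap in either tissue. Measured gene by gene from the control mean of its tissue, the members' median shift was 0.42 to 0.60 in light-exposed RPE arrays against -0.03 to 0.03 in control RPE arrays, and 0.21 to 0.43 in light-exposed NSR arrays against -0.05 to 0.06 in control NSR arrays.

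The 3 core proteins of the box C/D snoRNPs that are among the members rose in both tissues. These particles place methyl groups on rRNA. Nop58, a scaffold protein of the particle, had levels of 9.63, 9.58, 9.96 and 9.66 in light-exposed RPE, against 8.74, 8.60, 8.70 and 8.77 in control RPE. In the NSR it had 10.37, 10.36, 10.41 and 10.37 in light-exposed mice, against 9.86, 9.94, 9.87 and 9.67 in control mice. Every light-exposed array lay above every control array of its tissue. The rise was 2.01-fold in the RPE (log2 difference 1.01, SE 0.09, adjusted p 7.27e-05) and 1.46-fold in the NSR (log2 difference 0.54, SE 0.07, adjusted p 0.0002). Fbl, fibrillarin, is the methyltransferase of the particle. Its levels were 10.35, 10.34, 10.47 and 10.20 in light-exposed RPE, against 9.37, 9.47, 9.54 and 9.38 in control RPE. In light-exposed NSR they were 10.08, 10.23, 10.21 and 9.99, against 9.40, 9.55, 9.48 and 9.38 in control NSR. Here too the groups were fully separated. Fbl rose 1.86-fold in the RPE (SE 0.07 on the log2 scale, adjusted p 4.89e-05) and 1.59-fold in the NSR (SE 0.07, adjusted p 6.27e-05). A second, dimmer cluster of Fbl moved the same way by less, with a log2 difference of 0.41 in the RPE and 0.25 in the NSR. Nop56, the other scaffold protein, rose 1.53-fold in the RPE (adjusted p 0.00156) and 1.37-fold in the NSR (adjusted p 0.00311).

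The 3 members from the H/ACA snoRNPs, which convert uridine in rRNA to pseudouridine, also rose in both tissues. Nop10, a further core protein of this particle, was counted with the snoRNP assembly genes and passed in neither tissue. Nhp2, an RNA-binding core protein, had levels of 9.16, 9.38, 9.49 and 9.20 in light-exposed RPE, against 8.44, 8.67, 8.54 and 8.41 in control RPE. In the NSR its levels were 8.33, 8.41, 8.75 and 8.07 in light-exposed mice, against 7.93, 7.93, 7.87 and 7.79 in control mice. Its light-exposed NSR arrays were more spread than the control ones, yet all of them lay higher. Nhp2 rose 1.74-fold in the RPE (SE 0.09, adjusted p 0.000295) and 1.42-fold in the NSR (SE 0.12, adjusted p 0.012). Gar1, a second core protein, had 8.77, 8.89, 9.23 and 8.86 in light-exposed RPE, against 8.47, 8.40, 8.42 and 8.47 in control RPE. That is a 1.41-fold rise without overlap (SE 0.09, adjusted p 0.00473), and in the NSR Gar1 rose 1.21-fold (adjusted p 0.0259). Dkc1, dyskerin, the enzyme of the particle, showed smaller changes. In the NSR it had 8.80, 8.84, 8.94 and 8.56 in light-exposed mice, against 8.52, 8.63, 8.41 and 8.43 in control mice, and the groups overlapped. It rose 1.22-fold there (SE 0.09, adjusted p 0.0482) and 1.18-fold in the RPE (adjusted p 0.0365). The RPE call of Dkc1 was lost without any 1 array but RPE light 3 (adjusted p up to 0.0974) and with the 3 RPE arrays that stood apart left out together (0.309). Its NSR call was lost without NSR light 1, 2 or 3 or NSR control 1, 3 or 4 (up to 0.122). The NSR call of Gar1 was lost without NSR light 2 or 3 or NSR control 1, 3 or 4 (up to 0.0782).

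Among the abundant nucleolar phosphoproteins the picture differed, as 1 of 3 rose in the RPE and 0 of 3 in the NSR. Ncl, nucleolin, a histone chaperone and rRNA-binding protein, had levels of 11.36, 11.29, 11.31 and 11.25 in light-exposed RPE, against 11.39, 11.27, 11.31 and 11.38 in control RPE. In light-exposed NSR they were 11.47, 11.53, 11.43 and 11.66, against 11.50, 11.57, 11.54 and 11.41 in control NSR. The groups were interleaved in both tissues, and the 95% interval of the log2 difference ran from -0.17 to 0.10 in the RPE and from -0.13 to 0.17 in the NSR. Npm1, nucleophosmin, a scaffold of the outer nucleolus, had a log2 difference of 0.04 in the RPE (95% interval -0.12 to 0.19) and 0.13 in the NSR (-0.01 to 0.26). These intervals lie below the change seen for Fbl or Nop58 in the same tissue. Nolc1, a chaperone that binds snoRNPs, had 8.66, 8.93, 9.08 and 8.96 in light-exposed RPE, against 8.53, 8.52, 8.61 and 8.62 in control RPE. It rose 1.26-fold (SE 0.09, adjusted p 0.0268), a call that was lost without RPE light 2, 3 or 4 or without RPE control 1, 2 or 3 (adjusted p up to 0.0693).

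DEAD-box helicases unwind and remodel the precursor, and 3 of the 5 members of this class rose in the RPE and 2 in the NSR. Ddx10, a helicase of the small subunit pathway, had 9.0, 9.01, 8.95 and 8.86 in light-exposed RPE, against 7.91, 8.15, 8.10 and 8.15 in control RPE. Its NSR levels were 8.93, 9.17, 9.21 and 9.01 in light-exposed mice, against 8.70, 8.83, 8.72 and 8.79 in control mice. Light-exposed arrays were above all control arrays in both tissues, by a wider margin in the RPE. The rise was 1.83-fold in the RPE (SE 0.07, adjusted p 4.89e-05) and 1.25-fold in the NSR (SE 0.08, adjusted p 0.0142). Ddx21 is a helicase linked both to RNA polymerase I transcription and to rRNA processing. Its levels were 8.53, 8.41, 8.58 and 8.32 in light-exposed RPE, against 7.83, 8.08, 7.93 and 8.09 in control RPE. In light-exposed NSR they were 8.78, 8.91, 9.0 and 8.77, against 8.36, 8.13, 8.04 and 8.15 in control NSR. Ddx21 rose 1.39-fold in the RPE (SE 0.08, adjusted p 0.00307) and 1.62-fold in the NSR (SE 0.08, adjusted p 0.000115), again without overlap. Ddx27, whose yeast counterpart acts on the large subunit, rose 1.33-fold in the RPE (adjusted p 0.0239), a call lost without RPE light 3 or 4 or RPE control 3 or 4 (adjusted p up to 0.0675). Ddx18 and Ddx52 passed in neither tissue, with log2 differences of 0.26 and 0.28 in the RPE (adjusted p 0.0508 and 0.0698) and 0.10 and 0.02 in the NSR. A second, dimmer cluster of Ddx18 had log2 differences of 0.39 in the RPE and 0.18 in the NSR.

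**Figure D2:**
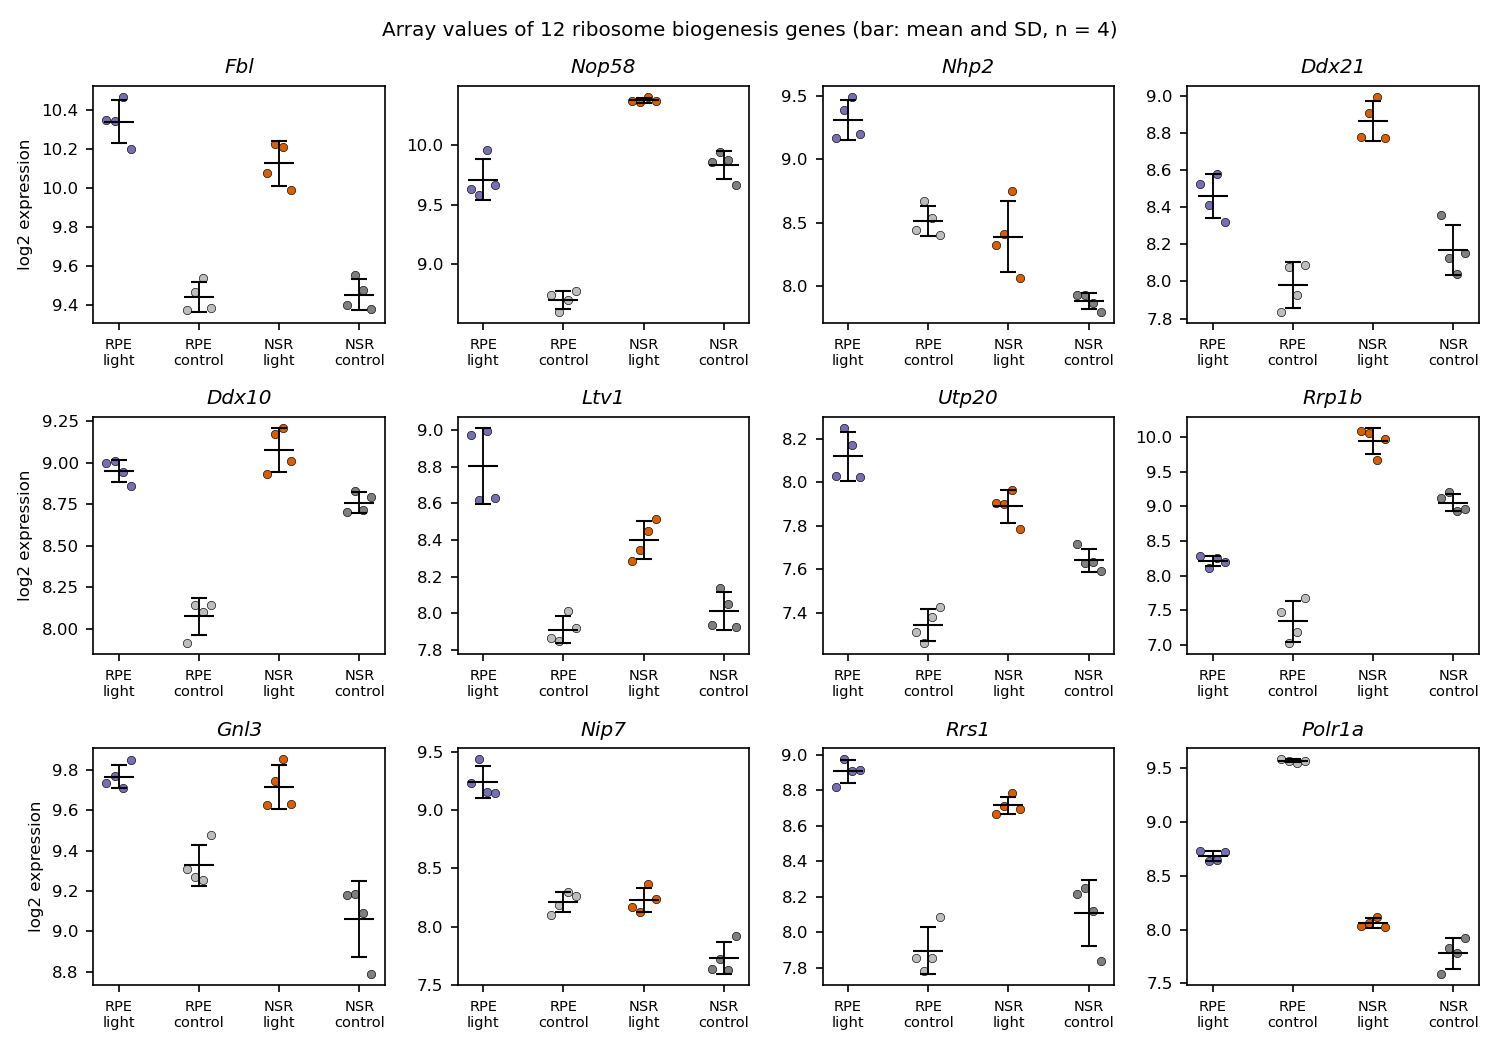
Each panel gives the log2 expression level of 1 gene on all 16 arrays, with the mean and SD of each group of 4 as bars, and each panel has its own axis. Light-exposed arrays lie above the control arrays of their tissue in all panels but Polr1a, where light-exposed RPE lies at 8.64 to 8.73 and control RPE at 9.55 to 9.59.

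Of the 14 genes that act on the small subunit, 12 rose in the RPE and 10 in the NSR, with median log2 differences of 0.49 and 0.31. Ltv1, a late assembly factor that leaves the particle before its last maturation steps, had levels of 8.97, 8.62, 9.0 and 8.63 in light-exposed RPE, against 7.86, 7.85, 8.01 and 7.92 in control RPE. In light-exposed NSR it had 8.29, 8.35, 8.45 and 8.52, against 7.94, 8.14, 8.05 and 7.93 in control NSR. All light-exposed arrays were higher than the control arrays. Ltv1 rose 1.86-fold in the RPE (SE 0.10, adjusted p 0.00025) and 1.31-fold in the NSR (adjusted p 0.00433). Utp20 is a large scaffold of the small subunit processome, the particle that forms on the nascent precursor. It had 8.03, 8.25, 8.17 and 8.03 in light-exposed RPE, against 7.31, 7.26, 7.38 and 7.43 in control RPE, and rose 1.71-fold (SE 0.07, adjusted p 9.35e-05). In the NSR the rise of Utp20 was 1.19-fold (adjusted p 0.022), with 7.91, 7.90, 7.97 and 7.79 in light-exposed mice, against 7.72, 7.63, 7.63 and 7.59 in control mice. That smaller rise lost its call without NSR light 1, 2 or 3 or NSR control 2, 3 or 4 (adjusted p up to 0.0612).

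Heatr1, Wdr43 and Utp15 belong to the subcomplex of the processome that also supports transcription of the precursor, and all 3 rose in both tissues. Heatr1 had 8.74, 8.67, 8.92 and 8.78 in light-exposed RPE, against 8.11, 8.16, 8.21 and 8.12 in control RPE. Its NSR levels were 8.75, 8.81, 9.03 and 8.81 in light-exposed mice, against 8.22, 8.42, 8.32 and 8.48 in control mice. The rise was 1.55-fold in the RPE (SE 0.07, adjusted p 0.000194) and 1.40-fold in the NSR (SE 0.08, adjusted p 0.00146), with no overlap. Wdr43 rose 1.63-fold in the RPE (adjusted p 0.000311) and 1.36-fold in the NSR (adjusted p 0.00424), and Utp15 rose 1.55-fold (adjusted p 0.000306) and 1.23-fold (adjusted p 0.00839). Utp18, of a neighbouring subcomplex, rose 1.63-fold in the RPE (adjusted p 0.000815) and 1.24-fold in the NSR (adjusted p 0.0142). Its partner Utp6 passed in neither tissue, with log2 differences of 0.22 (adjusted p 0.0534) and 0.08 (adjusted p 0.444).

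Nop14 and Noc4l, which bind each other in the processome, rose in both tissues. Noc4l had 7.41, 7.41, 7.73 and 7.36 in light-exposed NSR, against 7.10, 7.17, 6.53 and 7.04 in control NSR, the largest log2 difference of this group of 14 genes in the NSR at 0.51 (1.43-fold, SE 0.13, adjusted p 0.0222). NSR light 3 lay above and NSR control 3 below the rest of its group, and without NSR light 3 the call was lost (adjusted p 0.0629). Nop14 rose 1.41-fold in the RPE (adjusted p 0.000745) and 1.31-fold in the NSR (adjusted p 0.00883). Tsr1 and Rrp12, factors of later steps, also rose in both tissues: Tsr1 by 1.40-fold in the RPE (adjusted p 0.00116) and 1.23-fold in the NSR (adjusted p 0.0366), and Rrp12 by 1.27-fold (adjusted p 0.029) and 1.24-fold (adjusted p 0.0426). Rrp9, a protein of the snoRNP that guides early cleavage, and Bysl, an assembly factor, rose in the RPE by 1.25-fold (adjusted p 0.0443) and 1.16-fold (adjusted p 0.0461). Both lay close to the threshold, and these calls ended without any 1 RPE array, except RPE control 1 for Rrp9 and RPE control 2 for Bysl (adjusted p up to 0.115 and 0.121). Without the 3 RPE arrays that stood apart, Rrp9 had an adjusted p of 0.302. Nob1, the endonuclease of the last cut in the small subunit rRNA, had log2 differences of 0.06 in the RPE (95% interval -0.13 to 0.26) and 0.27 in the NSR (0.04 to 0.50, adjusted p 0.108).

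The start regions of these genes are shown because small subunit factors include those with the largest light changes among members whose promoter holds CACGTG, the E-box that the growth regulator Myc and its partner Max can bind. The table of promoters, from RefSeq on the GRCm38.p6 assembly, gives 250 bases before to 50 bases after each gene's start, and it held 40 of the 48 members. Bop1, Npm1, Gnl2, Mak16, Rrs1, Fbl, Rrp12 and Utp6 were not matched. The motif CACGTG, which reads alike on both strands, was in 8 of the 40 promoters (20%), against 9.5% of the promoters of genes on the array and 8.09% of all promoters in the table. CCGGAAG, a core bound by ETS factors, was searched on both strands (CTTCCGG on the reverse) and was in 17 of 40 (42.5%), against 13.6% and 9.93%. The palindromic motif of NRF1 was in 0 of 40, against 1.61% and 1.07%. The first motif shares no bases with the second, whose 2 orientations can overlap each other. Below, capitals mark CACGTG and CCGGAAG or CTTCCGG in the promoters of Ltv1 (chr10:13193088-13193387, minus strand), Utp20 (chr10:88826765-88827064, minus strand), Utp18 (chr11:93885717-93886016, minus strand) and Wdr43 (chr17:71615965-71616264, plus strand), each read 5′ to 3′ along its gene.
Ltv1: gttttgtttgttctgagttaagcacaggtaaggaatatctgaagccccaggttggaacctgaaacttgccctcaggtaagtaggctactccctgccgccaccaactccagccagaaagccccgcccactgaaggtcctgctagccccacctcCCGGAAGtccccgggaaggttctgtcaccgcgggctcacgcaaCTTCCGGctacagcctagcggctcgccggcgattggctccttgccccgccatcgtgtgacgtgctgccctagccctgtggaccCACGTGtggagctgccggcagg
Utp20: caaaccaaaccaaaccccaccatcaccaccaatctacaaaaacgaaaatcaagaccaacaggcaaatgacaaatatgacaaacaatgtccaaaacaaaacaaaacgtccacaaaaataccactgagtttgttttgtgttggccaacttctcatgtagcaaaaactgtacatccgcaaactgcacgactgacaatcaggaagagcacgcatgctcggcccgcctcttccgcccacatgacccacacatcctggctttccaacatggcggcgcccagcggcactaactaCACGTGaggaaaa
Utp18: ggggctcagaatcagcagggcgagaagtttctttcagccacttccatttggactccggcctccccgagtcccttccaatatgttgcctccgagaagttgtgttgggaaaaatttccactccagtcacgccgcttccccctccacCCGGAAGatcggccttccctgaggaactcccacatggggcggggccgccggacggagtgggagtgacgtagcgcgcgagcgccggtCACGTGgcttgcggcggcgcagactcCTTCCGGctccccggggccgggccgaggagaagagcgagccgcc
Wdr43: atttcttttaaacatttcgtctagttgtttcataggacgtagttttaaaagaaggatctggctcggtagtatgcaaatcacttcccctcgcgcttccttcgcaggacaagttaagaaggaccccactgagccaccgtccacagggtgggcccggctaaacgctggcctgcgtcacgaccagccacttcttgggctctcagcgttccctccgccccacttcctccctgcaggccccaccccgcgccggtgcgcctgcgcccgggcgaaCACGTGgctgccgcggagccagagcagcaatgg
CACGTG lies after the start in Ltv1, Utp20 and Wdr43 and before it in Utp18. Ltv1 and Utp18 also hold CCGGAAG and CTTCCGG, and Utp20 and Wdr43 hold neither. The promoters of Nop2, Tsr1, Pes1 and Rrn3 hold CACGTG too and are not printed. Pes1 and Rrn3 passed in neither tissue. A match of letters describes the sequence only, since binding was not measured.

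The large subunit pathway had 13 measured members, of which 8 rose in the RPE and 10 in the NSR, with median log2 differences of 0.49 and 0.38. Nip7, a factor that binds the maturing large subunit rRNA, showed the largest rise of all members in the RPE. Its levels were 9.23, 9.44, 9.15 and 9.14 in light-exposed RPE, against 8.10, 8.19, 8.30 and 8.26 in control RPE. In light-exposed NSR they were 8.17, 8.13, 8.37 and 8.24, against 7.64, 7.72, 7.63 and 7.92 in control NSR. The groups were separated in both tissues, with a 2.04-fold rise in the RPE (log2 difference 1.03, SE 0.08, adjusted p 4.21e-05) and 1.41-fold in the NSR (SE 0.08, adjusted p 0.00144). Rrs1, an assembly factor that joins early, had 8.82, 8.98, 8.91 and 8.92 in light-exposed RPE, against 7.85, 7.78, 7.86 and 8.09 in control RPE. It had 8.66, 8.71, 8.78 and 8.69 in light-exposed NSR, against 8.22, 8.25, 8.12 and 7.84 in control NSR. The light-exposed arrays were tightly grouped and above all control arrays. Rrs1 rose 2.01-fold in the RPE (SE 0.08, adjusted p 3.49e-05) and 1.52-fold in the NSR (SE 0.09, adjusted p 0.000537). With Nop58, Nip7 and Rrs1 were the 3 members that rose at least 2-fold in the RPE, against 0.762% of all genes, and 0 members did so in the NSR, against 1.14%.

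Rrp1b, a nucleolar protein of this pathway, showed the largest rise of all members in the NSR. It had 8.28, 8.11, 8.25 and 8.20 in light-exposed RPE, against 7.48, 7.02, 7.18 and 7.67 in control RPE, and rose 1.83-fold (log2 difference 0.87, SE 0.13, adjusted p 0.00118). In the NSR it rose 1.85-fold (log2 difference 0.89, SE 0.10, adjusted p 6.66e-05), with 10.09, 10.05, 9.67 and 9.97 in light-exposed mice, against 9.12, 9.20, 8.94 and 8.96 in control mice. The groups did not overlap in either tissue, and the responses differed by -0.02 (95% interval -0.38 to 0.34). Gnl3, nucleostemin, is a nucleolar GTPase known from stem cells. It had 9.74, 9.77, 9.71 and 9.85 in light-exposed RPE, against 9.31, 9.27, 9.26 and 9.48 in control RPE, and rose 1.36-fold (SE 0.07, adjusted p 0.00166). In the NSR it rose 1.57-fold (SE 0.10, adjusted p 0.000538), with 9.63, 9.75, 9.86 and 9.63 in light-exposed mice, against 9.18, 9.18, 9.09 and 8.79 in control mice. Its relative Gnl2 had a log2 difference of 0.26 in the RPE (adjusted p 0.094) and rose 1.21-fold in the NSR (adjusted p 0.0134).

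Bop1, Pes1 and Wdr12 form the complex that processes the large subunit rRNA, and they did not all pass in the same tissues. Wdr12 rose 1.70-fold in the RPE and 1.46-fold in the NSR, each with an adjusted p of 0.000297, and its second cluster had log2 differences of 0.75 and 0.51. Bop1 had a log2 difference of 0.32 in the RPE (adjusted p 0.0623) and rose 1.20-fold in the NSR (adjusted p 0.0314). The NSR call of Bop1 was lost without NSR light 2, 3 or 4 or NSR control 1, 3 or 4 (adjusted p up to 0.0896). Pes1 passed in neither, and its control RPE arrays were the most spread of all member groups there, at 8.51, 7.61, 7.99 and 8.22, beside 8.76, 8.43, 8.57 and 8.46 in light-exposed RPE. Its log2 difference in the RPE was 0.47 with a 95% interval of 0.10 to 0.84 (adjusted p 0.0855). Mak16 and Wdr74, both assembly factors, rose in the RPE (1.64-fold and 1.52-fold) and in the NSR (1.30-fold and 1.26-fold). Nop2, an rRNA methyltransferase, rose 1.40-fold in the RPE (adjusted p 0.0153), and its NSR value lay just outside the threshold at 1.23-fold (adjusted p 0.0554). With the 3 RPE arrays that stood apart left out together, its RPE call was lost (adjusted p 0.0655). Noc3l had a log2 difference of 0.21 in the RPE (adjusted p 0.0575) and rose 1.31-fold in the NSR (adjusted p 0.000987). Nop16 passed in neither, with 0.01 in the RPE and 0.18 in the NSR.

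RNA polymerase I and its initiation factors were the class with opposed changes. Polr1a, the catalytic subunit, had levels of 8.73, 8.64, 8.65 and 8.72 in light-exposed RPE, against 9.59, 9.57, 9.55 and 9.57 in control RPE. In light-exposed NSR its levels were 8.03, 8.06, 8.12 and 8.02, against 7.58, 7.83, 7.78 and 7.92 in control NSR. All light-exposed arrays lay below the control arrays in the RPE and above them in the NSR. Polr1a fell 1.85-fold in the RPE (log2 difference -0.88, SE 0.06, adjusted p 9.79e-06), the 1 fall among the members, and this call was kept in all alternatives run. It rose 1.22-fold in the NSR (log2 difference 0.28, SE 0.08, adjusted p 0.028), a call lost without NSR light 1, 2 or 3 or NSR control 1 or 3 (adjusted p up to 0.0691) and with quantile normalization (adjusted p 0.0808). A single cluster reads Polr1a on this array, so a second set of probes could not be compared.

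The other polymerase subunits on the list rose in the RPE, where Polr1a fell. Polr1b, which forms the active centre together with Polr1a, rose 1.34-fold there (adjusted p 0.00771), and Polr1c, which RNA polymerase III also uses, rose 1.21-fold (adjusted p 0.0289). Polr1e, a subunit that helps bind initiation factors, had 7.33, 7.34, 7.25 and 7.50 in light-exposed RPE, against 7.12, 7.04, 6.46 and 6.75 in control RPE. It rose 1.42-fold in the RPE (SE 0.13, adjusted p 0.0253) and 1.20-fold in the NSR (SE 0.08, adjusted p 0.0488), where it had 7.07, 6.84, 6.94 and 6.82 in light-exposed mice, against 6.81, 6.61, 6.53 and 6.66 in control mice. The RPE call of Polr1c was lost without any 1 array but RPE light 2 (adjusted p up to 0.0761). That of Polr1e was lost without RPE light 2 or 4 or RPE control 4 (up to 0.0691), and its NSR call without NSR light 1, 2 or 3 or NSR control 2, 3 or 4 (up to 0.129). Polr1b and Polr1c did not pass in the NSR, with log2 differences of 0.18 each. Rrn3, the factor that brings the polymerase to the promoter, passed in neither tissue, at 0.16 in the RPE (adjusted p 0.0915) and 0.19 in the NSR (adjusted p 0.0976).

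Taf1d belongs to the selectivity factor that recognises the rRNA gene promoter. Its brightest cluster had 10.41, 10.56, 10.27 and 10.28 in light-exposed RPE, against 9.43, 9.76, 9.65 and 9.82 in control RPE, a 1.65-fold rise (SE 0.10, adjusted p 0.000827). In the NSR the log2 difference was 0.17 (adjusted p 0.127). Whether this cluster reads the mRNA of the gene is uncertain. The gene has 9 clusters on this array, which did not move alike: their log2 differences ran from -0.20 to 0.72 in the RPE and from 0.17 to 0.62 in the NSR. In the RPE 7 of them lay above 0 and 2 below, and in the NSR all 9 lay above 0. With the mean of all its clusters, the RPE difference was 0.29 and did not pass (adjusted p 0.387). That mean counts 1 signal 4 times, since 4 of the 9 clusters had equal group means, and over the 6 distinct clusters the mean difference was 0.20.

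Which members responded differently in the tissues was tested in a fit of all 16 arrays, as the light response in the RPE minus that in the NSR. The log2 change was larger in the RPE than in the NSR for 33 of the 47 members, against 53.5% of all genes, with a median difference of 0.17, beside 0.02 over all genes. The test called 9 members with a larger response in the RPE and 1 with a smaller one, against 5.16% and 8.05% of all genes. With a difference of at least 1.5-fold required as well, 0 were larger and 1 was smaller, against 2.03% and 4.35%. At an unadjusted p under 0.05, 17 members differed, against 24.5% of all genes. Beside Taf1d, the largest were Ddx10, with a difference of responses of 0.56 (SE 0.10, adjusted p 0.00124), Nip7 with 0.53 (SE 0.12, adjusted p 0.00509) and Utp20 with 0.53 (SE 0.09, adjusted p 0.000804). Ltv1 followed with 0.51 (adjusted p 0.0126) and Nop58 with 0.46 (adjusted p 0.00969). These 5 genes rose in both tissues and rose more in the RPE. Rrs1, Utp18 and Utp15, with 0.40, 0.40 and 0.33, lay nearer the threshold (adjusted p 0.0335, 0.0407 and 0.0294). Utp15 lost its call without NSR light 2 or 4, NSR control 1 or 2, RPE light 3 or RPE control 2 (adjusted p up to 0.0637). Utp18 lost it without any 1 array but NSR control 3, RPE light 2, RPE light 4 or RPE control 2 (up to 0.0853). Rrs1 lost it without any 1 array but NSR light 3, NSR control 4, RPE light 1 or RPE control 4 (up to 0.074). With the mouse as a block, the call of Rrs1 was lost too (adjusted p 0.105). Taf1d had 0.55 in its brightest cluster (adjusted p 0.00503) and 0.01 over the mean of its clusters (adjusted p 0.986).

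Polr1a was the 1 member with a lower response in the RPE, at -1.17 (SE 0.09, 95% interval -1.36 to -0.97, adjusted p 1.99e-07). Ddx21 and Gnl3 changed more in the NSR by estimate, each at -0.22 with a 95% interval of -0.47 to 0.04, and neither passed (adjusted p 0.294 and 0.3). Thus 26 members passed as higher in both tissues, 8 rose in the RPE without passing in the NSR, and 4 rose in the NSR without passing as higher in the RPE, against 3.23%, 5.85% and 5.64% of all genes in the same order. Of the last 12, Polr1a and the brightest cluster of Taf1d had responses that were called different between the tissues. The log2 changes of the 47 members in the tissues had a Pearson correlation of 0.53, a description across genes that share mice and are not independent.

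**Figure D3:**
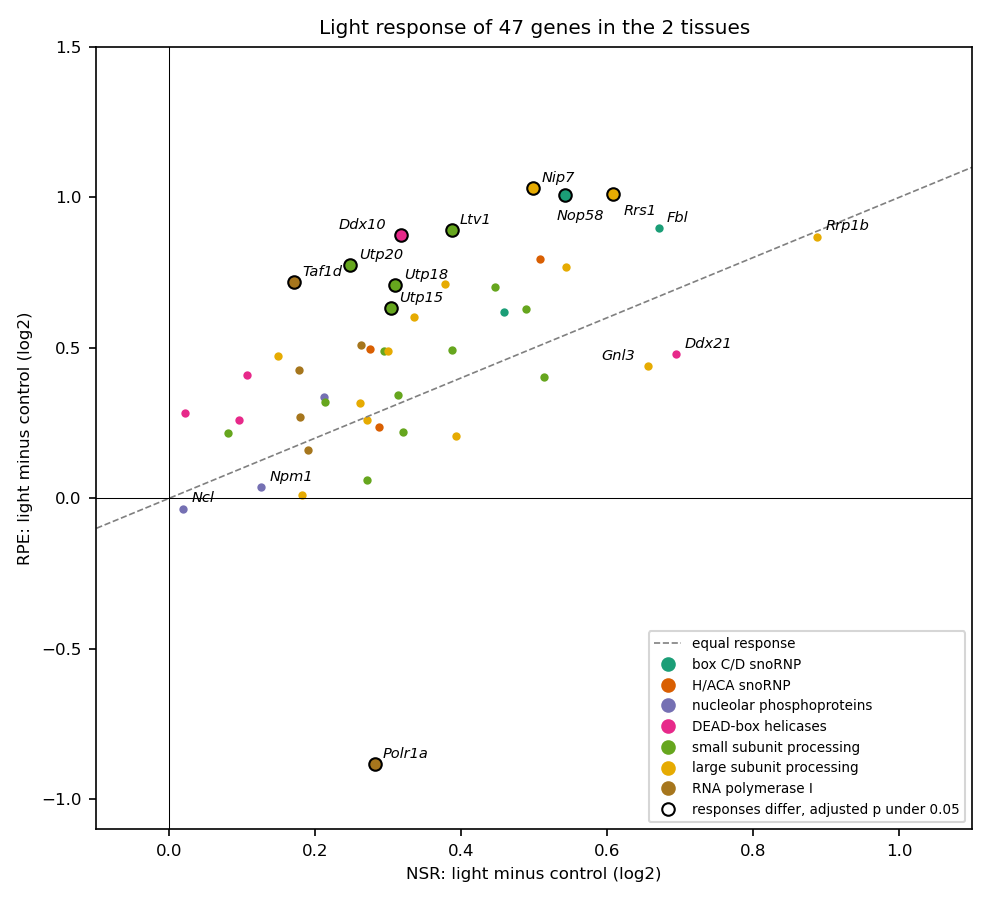
Each point is 1 of the 47 genes, with its log2 difference of light minus control in the NSR on the horizontal axis and in the RPE on the vertical axis, coloured by role. Rings mark the 10 genes whose responses were called different, and the dashed line marks equal responses. Most genes lie above the line, Ddx21 and Gnl3 below it, and Polr1a at -0.88 in the RPE and 0.28 in the NSR.

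In unexposed mice the same genes did not share a direction between the tissues. In control RPE against control NSR, 11 of the 47 were higher and 18 lower, against 30.8% of all genes higher and 24.2% lower, and the median log2 difference was -0.03, beside 0.04 over all genes. The arrays did not overlap for 10 members that were higher and 16 that were lower in control RPE, against 29.5% and 22.8% of all genes. The split depends on scaling: 17 were higher and 12 lower after centring each array on its median (48.3% and 18.6% of all genes), which moved the median of all genes to 0.19 and that of the members to 0.11. After quantile normalization of all arrays, 7 were higher and 26 lower (27.9% and 27.8% of all genes). Polr1a, Bysl, Nop16, Rrp1b, Nop58 and Taf1d kept their direction and call under both. Polr1a had the largest difference, 3.46-fold higher in control RPE (log2 difference 1.79, SE 0.06, adjusted p 8.46e-14), with a mean level of 9.57 ± 0.01 (SD, n = 4) in control RPE and 7.78 ± 0.14 (SD, n = 4) in control NSR. Even after its fall, light-exposed RPE averaged 8.68 ± 0.05 and light-exposed NSR 8.06 ± 0.04 (SD, n = 4). Bysl was 2.08-fold (adjusted p 5.04e-08) and Nop16 1.62-fold higher in control RPE (adjusted p 4.47e-06). On the other side, Rrp1b averaged 7.34 ± 0.29 in control RPE, against 9.05 ± 0.13 in control NSR (SD, n = 4, log2 difference -1.72, adjusted p 7.99e-10). Nop58 averaged 8.70 ± 0.08 in control RPE, against 9.83 ± 0.12 in control NSR (log2 difference -1.13, adjusted p 8.03e-10). The brightest cluster of Taf1d differed by -1.13 (adjusted p 2.24e-09). Ncl (-0.17, adjusted p 0.0305) and Rrs1 (-0.21, adjusted p 0.0447) lost their calls with each array centred on its median (adjusted p 0.75 and 0.492), with the mouse as a block (0.0822 and 0.104) and without several single arrays.

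**Figure D4:**
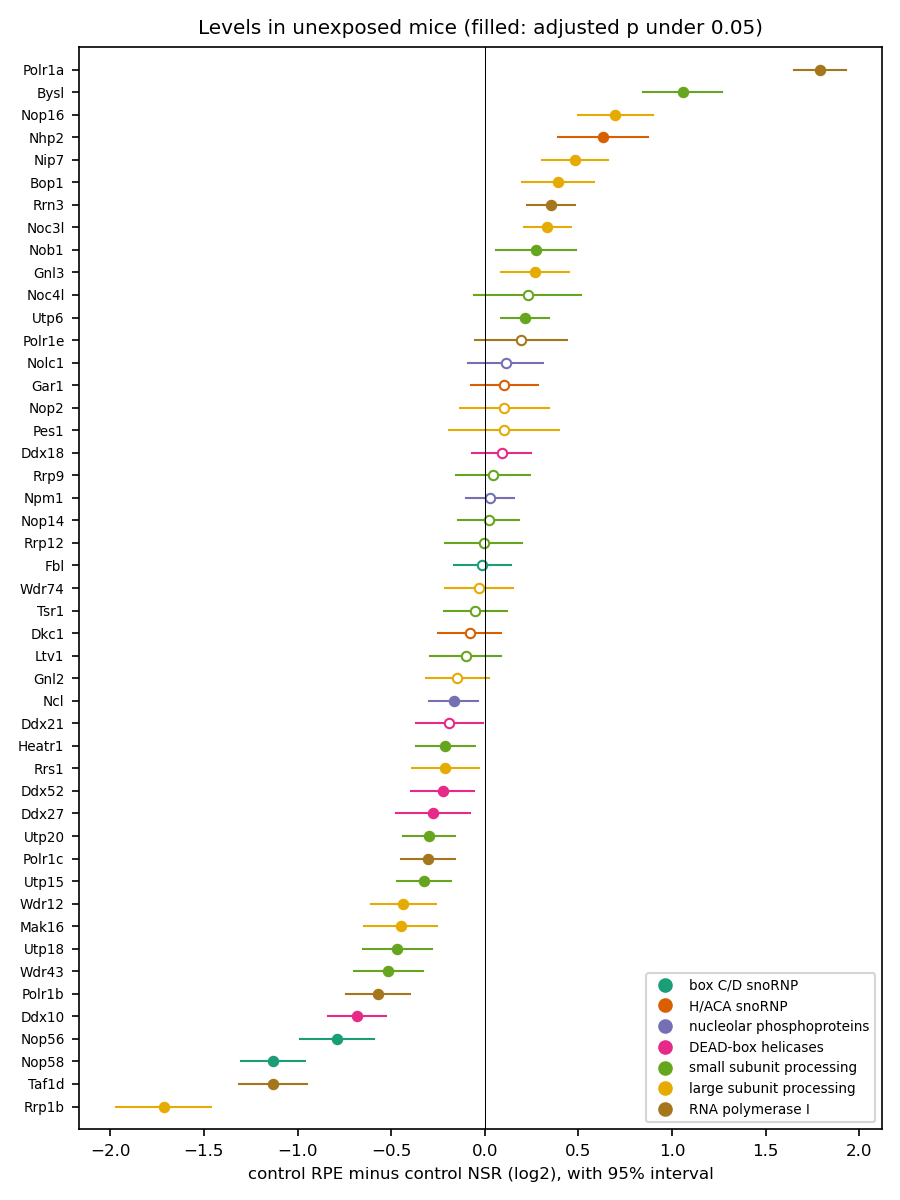
The plot gives the log2 difference of control RPE minus control NSR for each of the 47 genes in order of size, with 95% confidence intervals and colours by role. Filled points passed an adjusted p under 0.05. Polr1a at 1.79 and Rrp1b at -1.72 mark the ends.

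On lists of other factors of ribosome production, some genes were also called higher, with smaller medians. Over all genes, 9.08% rose in the RPE and 8.87% in the NSR. Of 33 other small subunit factors, 22 rose and 0 fell in the RPE (median 0.36), and 11 rose and 0 fell in the NSR (median 0.17). The largest were Pno1, a partner of Nob1, and the processome gene Utp14a, with log2 differences of 0.85 (adjusted p 0.000191) and 0.71 (adjusted p 0.00202) in the RPE. Of 36 other large subunit factors, 21 rose and 0 fell in the RPE (median 0.31) and 18 rose and 0 fell in the NSR (median 0.25). Sdad1, needed for large subunit export in yeast, rose in both, with 0.86 in the RPE (adjusted p 0.000459) and 0.66 in the NSR (adjusted p 5.27e-05). Of 14 genes of the exosome and of rRNA trimming, 5 rose in the RPE (median 0.18) and 3 in the NSR (median 0.11), and 9 and 11 did not pass. Dis3, a nuclease of the exosome, rose in both. Of 16 snoRNA host and snoRNP assembly genes, 4 rose in the RPE (median 0.19) and 3 in the NSR (median 0.04), and 12 and 13 did not pass. In these lists 0 genes fell in either tissue, against 8.53% of all genes in the RPE and 6.24% in the NSR.

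Most of the remaining genes of RNA polymerase I did not pass. Of 9 such genes, 2 rose in the RPE and 0 in the NSR (9.08% and 8.87% of all genes), with medians of 0.14 and 0.07. In the NSR 1 of them, Twistnb, had an unadjusted p under 0.05. Twistnb, another subunit of the polymerase, had levels of 8.51, 8.67, 8.64 and 8.22 in light-exposed RPE, against 7.42, 7.54, 7.71 and 7.80 in control RPE, and rose by 0.89 on the log2 scale (adjusted p 0.000566). Taf1b, a partner of Taf1d, rose by 0.30 (adjusted p 0.00581). Ubtf, the factor that keeps rRNA genes open, did not pass, with log2 differences of 0.08 in the RPE and 0.07 in the NSR. Polr1a was the 1 called fall among the genes of RNA polymerase I on both lists.

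Cytosolic ribosomal protein genes, the products that these factors assemble with rRNA, rose for 11 of 16 in the RPE (median 0.31) and 5 of 16 in the NSR (median 0.11), with 0 falls. Rplp0, a stalk protein of the large subunit, had a log2 difference of 0.63 in the RPE (adjusted p 9.78e-05) and 0.88 in the NSR (adjusted p 5.66e-06). Ribosomal protein genes have many processed copies in the genome, so their signal may be shared with these and is uncertain. Of 20 proliferation markers, 3 rose and 2 fell in each tissue, with medians of 0.03 and 0.04. Over all genes, 9.08% rose and 8.53% fell in the RPE, and 8.87% rose and 6.24% fell in the NSR.

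**Figure D5:**
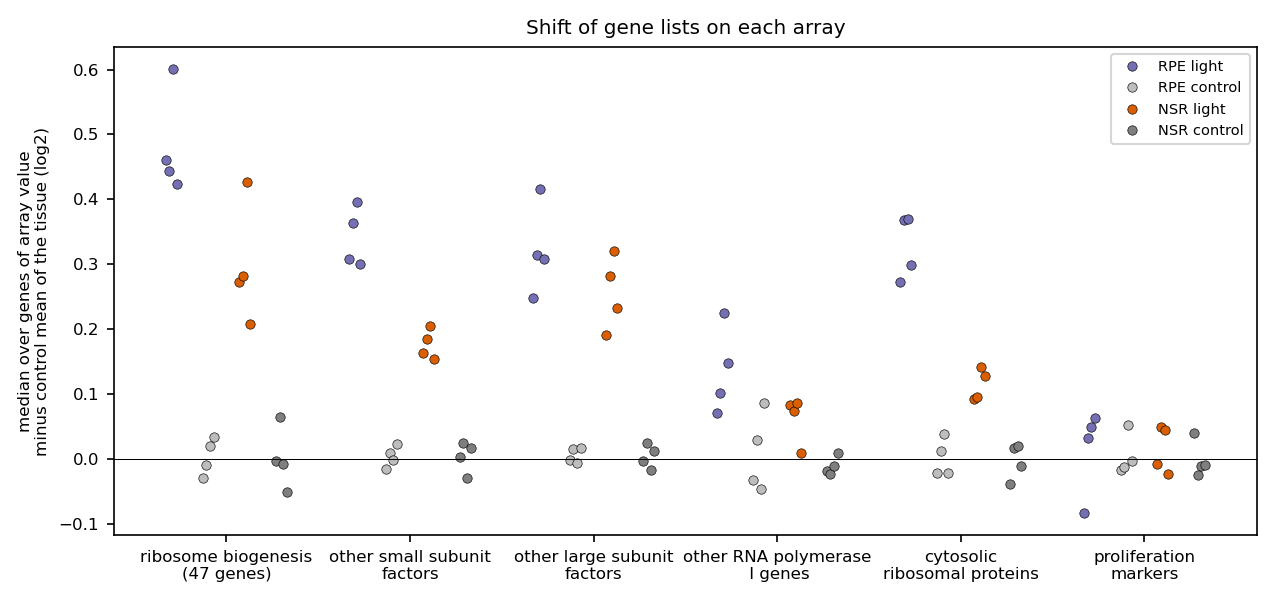
Each point is 1 array: the median, over the genes of a list, of the array's log2 value minus the control mean of the same tissue. The members' points lie at 0.42 to 0.60 in light-exposed RPE and 0.21 to 0.43 in light-exposed NSR, and proliferation markers stay near 0 in all groups.

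Myc, a transcription factor known to drive ribosome biogenesis genes, differed between the tissues. Its levels were 6.04, 5.79, 6.34 and 6.28 in light-exposed RPE, against 5.75, 6.23, 6.48 and 6.03 in control RPE. In light-exposed NSR they were 7.64, 7.91, 8.39 and 7.68, against 5.01, 5.22, 5.20 and 5.17 in control NSR. The RPE groups overlapped and the NSR groups did not. Its log2 difference was -0.01 in the RPE (95% interval -0.37 to 0.36, adjusted p 0.987) and 2.75 in the NSR (adjusted p 1.07e-07), where the control level lies among the dimmest genes and the size of the rise is uncertain. The difference of responses was -2.76 (adjusted p 4.5e-07). Of the 13 genes of the Myc network, 0 rose and 3 fell in the RPE (median -0.06), against 9.08% and 8.53% of all genes. In the NSR 2 of them rose and 0 fell (median 0.02), against 8.87% and 6.24%. Mxd4 and Mxd1, Max partners that oppose Myc, fell in the RPE by 1.11 and 0.36 on the log2 scale (adjusted p 2.62e-05 and 0.0289). Fbxw7, a ubiquitin ligase subunit that marks Myc for degradation, fell by 0.85 in the RPE (adjusted p 0.000179) and rose by 0.27 in the NSR (adjusted p 0.015).

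Markers of cell types moved with light too. Beside the counts below, 9.08% of all genes rose and 8.53% fell in the RPE, and 8.87% rose and 6.24% fell in the NSR. The summed linear level of 11 rod markers was 5116 to 8244 in light-exposed RPE and 5942 to 8348 in control RPE, and 0 of 11 passed. In the NSR it was 34616 to 40000 in light-exposed mice and 52555 to 53630 in control mice, and all 11 fell. For 11 pigment epithelium markers the sum in the RPE was 37818 to 42999 in light-exposed mice and 50520 to 52788 in control mice, and 5 fell and 0 rose. Sums over 15 markers of microglia and macrophages were 4107 to 4655 in light-exposed RPE and 3325 to 4184 in control RPE, where 2 rose and 1 fell. In the NSR they were 1379 to 1626 in light-exposed mice and 1067 to 1166 in control mice, where 5 rose and 0 fell. Sums over 9 neutrophil and monocyte markers were 380 to 466 in light-exposed RPE and 348 to 353 in control RPE, and 3 rose. The part of these shifts in the results for ribosome biogenesis genes was not tested.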

How the data were processed

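RNA of the RPE and NSR of 8 mice was measured on 16 Affymetrix Mouse Gene 1.0 ST arrays. Per the submitters' processing notes, the authors made the log2 values with RMA in Partek 6.6. Their deposited table holds 35556 transcript clusters, and the log2 scale was judged from its range of 2.20 to 13.84. The number of arrays limits the precision. Probe filters and genome build: not given in the sources used here.

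Groups were taken from the labels. Among 120 pairs of arrays 0 held identical values. The platform annotation gave 1 symbol to 21789 clusters, several to 1621 and none to 12146, and only the first kind was used, the brightest cluster standing for each of 19938 genes.

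Light and control were compared within each tissue with limma 3.58.1 in R 4.3.3. The difference of responses and the control tissues were compared in 1 fit of 16 arrays, with a mean for each of the 4 groups. All adjusted p-values come from limma (Benjamini-Hochberg over all genes, called under 0.05). The fits were tested on simulated data. Python 3.11.15, pandas 2.3.3 and matplotlib 3.10.9 made tables and plots. In each light comparison and role, the 2 called members with the largest change are given with every array's value. Other lists are given by counts, a median or summed level, and up to 2 called genes, but all called genes of the Myc network are named. Array values of Ncl, Pes1, Dkc1, Myc and Twistnb, and the RPE difference of Rplp0, were chosen for print after they were seen. The members and lists were chosen with earlier results of these data known.

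RPE and NSR arrays of a condition with the same number were taken as the same mouse. Their deviations from group means correlated between -0.011 and 0.053, which does not show the pairing. Light and control arrays with the same number are different mice. Alternatives were other scalings, leaving out the dimmest 25% of genes, the mean of a gene's clusters, other priors, array weights, a 1.5-fold threshold, a replicate or mouse block, and leaving out each array.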

Additional observations from a re-analysis of the deposited data

Results flagged for a closer look

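In groups of 4 arrays, 1 array lay far from the other 3 in 6 of 188 member groups checked. Chance flags about 1 in 20 groups, so 6 is fewer than chance would give. Rrp9 appears in both tissues, with 7.31 on RPE light 2 (the others 7.03 to 7.06) and 6.49 on NSR control 4 (the others 6.81 to 6.85). Ddx18 had 9.44 on RPE light 3 (9.24 to 9.27) and Gnl2 8.84 on RPE light 3 (8.66 to 8.68). Ddx52 had 9.27 on NSR control 2 (9.11 to 9.11) and Noc4l 7.73 on NSR light 3 (7.36 to 7.41).

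The light response differed between the tissues for 10 members in limma, given as the log2 response in the RPE minus that in the NSR. Larger responses in the RPE were found for Ddx10 (0.56), Taf1d (0.55, brightest cluster), Nip7 (0.53), Utp20 (0.53), Ltv1 (0.51), Nop58 (0.46), Rrs1 (0.40), Utp18 (0.40) and Utp15 (0.33). Polr1a had -1.17 and was the member whose called changes had opposite signs.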

How the results depend on the processing

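With 1 array left out at a time, 26 to 30 members rose in the RPE (34 with all arrays) and 21 to 31 in the NSR (30), 6 to 9 responses were larger in the RPE (9), and 9 to 12 members were higher and 13 to 18 lower in control RPE (11 and 18). Polr1a was the 1 fall in the RPE and the 1 smaller response in every setting, and 0 members fell in the NSR in any. With a threshold of 1.5-fold added, 18 members rose in the RPE, 5 in the NSR, 0 responses were larger in the RPE, and 4 members were higher and 5 lower in control RPE (16.3% and 12.8% of all genes). Higher in control RPE were 17 with each array centred on its median and 7 with quantile normalization of all arrays. No called change of a member reversed its direction. Among members that did not pass, signs turned for Ncl, Ddx52 and Utp6 in the NSR and for Nop16 and Npm1 in the RPE under some settings. Apart from the 1.5-fold threshold, 24 calls in the RPE were kept under every alternative and 11 were not, in the NSR 19 and 11, for the difference of responses 6 (Ddx10, Ltv1, Nip7, Nop58, Polr1a and Utp20) and 4, and between the control tissues 19 and 10. Tsr1, whose NSR call is printed, lost it without NSR light 2, 3 or 4, any NSR control array, or with quantile normalization (adjusted p up to 0.0979), and Rrp12 lost its RPE call without RPE light 3 or 4 or RPE control 2, 3 or 4 (up to 0.0816) and its NSR call without any 1 array but NSR light 4 (up to 0.115). Noc4l lost its RPE call without RPE light 1, 2 or 3 or RPE control 1, 3 or 4 (up to 0.101). With quantile normalization within the tissue, 22 members rose in the NSR, and the median log2 difference of the members was 0.24. The 8 NSR calls lost there were those of Dkc1, Gar1, Gnl2, Polr1a, Polr1e, Tsr1, Utp18 and Utp20 (adjusted p 0.0505 for Gnl2 and 0.0581 for Utp18). The cause was not tested. With the replicate number as a block, 29 members rose in each tissue, although same-numbered light and control arrays are different mice, with deviations correlated between -0.017 and 0.066. With the mouse as a block, 8 responses were larger and 1 smaller in the RPE, and 11 members were higher and 16 lower in control RPE; of the calls printed, it changed those of Rrs1 and Ncl. Among all genes, quantile normalization within the tissue changed the split of calls in the NSR to 1570 higher and 1600 lower, against 1769 and 1244. Centring on the median over the genes tested, chosen after seeing the data, gave 1630 and 1525. Centring on the array median gave 2036 higher and 989 lower in the NSR. With no detection measure, signal over background is unknown.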
